A study of Mus musculus with 8 samples.

Results

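The genes described here are the replication-dependent histone genes of the mouse, taken as every gene symbol in the deposited count tables that begins with Hist1h, Hist2h, Hist3h or Hist4h and goes on with a histone type. The rule found 68 of the 24421 genes in the tables. By type, 6 encode the linker histone H1, 18 encode H2A, 19 encode H2B, 12 encode H3 and 13 encode H4. In the mouse genome 54 of them lie in the Hist1 cluster on chromosome 13, 10 in the Hist2 cluster on chromosome 3, 3 in the Hist3 cluster on chromosome 11 and 1, Hist4h4, on chromosome 6. The symbol of 1 member, Hist3h2bb-ps, marks it as a pseudogene. Of the 68, 59 had at least 1 count in some library and 9 had none, 3 of the 59 had 50 counts or fewer over all libraries, and the other 56 passed the expression filter and were tested.

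Replication-dependent histone genes supply the proteins that package newly made DNA, and in dividing cells their mRNAs accumulate during S phase and are destroyed when DNA synthesis ends. Unlike other mRNAs most of them have no poly(A) tail: the transcript is cut just after a short stem-loop, which is bound by the stem-loop binding protein Slbp. Some members can also be read through to a poly(A) signal, which gives a polyadenylated mRNA that non-dividing cells can make. In the hippocampus progenitors of the dentate gyrus go on dividing after birth, while most neurons have left the cell cycle.

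The study compared hippocampal RNA of wildtype C57BL/6J offspring, labelled male, at postnatal day 3 and postnatal week 8. Dams of the IUGR group (intrauterine growth restriction) received intraperitoneal dexamethasone, a synthetic glucocorticoid, at 1 mg/kg per day for 5 days from 14.5 days post coitum, and dams of the NS group received an equal volume of normal saline on the same schedule. Each of the 4 groups (NS and IUGR at each age) held 2 libraries, called replicates 1 and 2. The labels do not say whether they came from separate animals or litters, so every p-value below measures the spread between these libraries, which may be technical. All animals share the fetal injections and the strain, and the model is a drug given to the dam, not a restriction of nutrients. RNA was depleted of ribosomal RNA and copied with random primers, a method that does not need a poly(A) tail.

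Library totals ranged from 13030277 to 18993050 counts. Levels are given as CPM, a gene's count scaled to a common library total of 1000000, and a count of 0 allows up to 3 counts, between 0.158 and 0.230 CPM depending on the library. The week 8 replicate 2 libraries of both groups stood apart from the other 6. They held 0 and 2 counts of Rpph1, the RNA of ribonuclease P, against 872768 to 1119905 in the other 6 libraries, and their summed histone level was 11.8 (NS) and 9.52 (IUGR) times below that of week 8 replicate 1. Counts of calls and fold changes that use week 8 are therefore given with and without them. Both day 3 replicate 2 libraries, labelled male, had 4998 and 5130 counts of Xist, against 1 to 81 in the other 6, and 10 and 34 counts of the Y-linked gene Ddx3y, against 1035 to 2016. Neuron markers were present in all 8 libraries, from 4172 to 12465 CPM summed over 15 genes. The 15 include general neuron genes such as Tubb3 and Map2, so the sum does not by itself show the region.

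The stem-loop is the feature that most members share and that the symbols do not define. It was searched in the GENCODE M21 transcripts as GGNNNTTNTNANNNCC, on the transcript's own strand, with 6-base arms that pair. It was found in 46 of the 68 members and in 23 of 21810 other protein-coding genes (0.105%), H2afx among them. Of the 22 members with no match, 16 have an annotated 3′ UTR shorter than 30 bases. Below stand, 5′ to 3′ with the stem-loop in capitals and 5 bases on either side, the highest H1, H2A, H2B, H3 and H4 member with a match, by mean CPM per kb of gene length, and then the other members of the poly(A) list described further on that have one. Positions are on GRCm38.
Hist1h1c, chr13:23739507-23739532, plus strand: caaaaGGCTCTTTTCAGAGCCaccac
Hist3h2a, chr11:58955167-58955192, plus strand: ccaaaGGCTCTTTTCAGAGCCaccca
Hist1h2bb, chr13:23747198-23747223, plus strand: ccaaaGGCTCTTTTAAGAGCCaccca
Hist1h3e, chr13:23561898-23561923, minus strand: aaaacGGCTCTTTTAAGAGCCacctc
Hist1h4c, chr13:23698084-23698109, minus strand: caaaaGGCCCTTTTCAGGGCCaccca
Hist1h2ac, chr13:23683472-23683497, minus strand: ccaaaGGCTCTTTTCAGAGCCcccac
Hist1h2be, chr13:23585526-23585551, minus strand: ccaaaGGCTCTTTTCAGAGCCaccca
Hist3h2ba, chr11:58949344-58949369, plus strand: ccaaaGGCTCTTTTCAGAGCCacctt
Hist1h4h, chr13:23531453-23531478, plus strand: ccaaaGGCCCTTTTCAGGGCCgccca
Hist4h4, chr6:136803993-136804018, minus strand: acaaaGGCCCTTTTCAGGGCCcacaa
The most common 16-base core, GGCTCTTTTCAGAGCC, occurs in 26 members. The stem follows the type: every match in an H1, H2A, H2B or H3 gene begins with GGCTCT (4, 11, 10 and 9 genes), whereas 10 H4 matches begin with GGCCCT and the other 2 with GGTCCT.

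The promoters also divide by type. RefSeq gives a promoter (250 bases before to 50 after the start, GRCm38.p6) for 62 members. CCAAT, searched on both strands, was in all 6 H1, all 18 H2A, all 16 H2B and all 10 H3 promoters but in 3 of 12 H4 promoters, against 37.3% of 32788 other promoters. GGTCCG, the core of an element known from H4 promoters, was in 11 of 12 H4 promoters, in 1 H2B and 1 H3 promoter, and in 8.23% of the others. ATTTGCAT, the octamer bound by POU factors, was in 7 of 18 H2A and 7 of 16 H2B promoters, in no H1, H3 or H4 promoter, and in 1.7% of the others. Some H2A and H2B genes, such as Hist1h2ah and Hist1h2bk, lie head to head and close together. Their promoters can overlap, so a single site can be counted for both genes. TATAAA was in 35 of the 62 (56.5%) against 13.5%. The 250 bases before the start of Hist2h2bb and Hist1h4c, the highest H2B and H4 member by mean CPM per kb of gene length, are shown with these motifs in capitals, ATTGG being CCAAT on the other strand.
Hist2h2bb, chr3:96269450-96269699, plus strand: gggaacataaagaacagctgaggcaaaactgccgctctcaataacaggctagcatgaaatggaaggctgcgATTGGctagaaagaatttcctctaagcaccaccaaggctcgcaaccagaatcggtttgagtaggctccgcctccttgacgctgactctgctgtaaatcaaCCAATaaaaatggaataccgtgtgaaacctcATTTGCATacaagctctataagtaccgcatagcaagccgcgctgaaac
Hist1h4c, chr13:23698459-23698708, minus strand: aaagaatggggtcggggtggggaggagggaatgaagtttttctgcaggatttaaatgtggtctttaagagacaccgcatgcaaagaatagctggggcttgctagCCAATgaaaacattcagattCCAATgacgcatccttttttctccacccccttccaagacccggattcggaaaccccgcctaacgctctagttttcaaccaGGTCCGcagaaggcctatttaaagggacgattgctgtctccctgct
A motif match is a description of these letters and no evidence of binding.

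On postnatal day 3 histone mRNA took a sizeable share of each library. The 68 members summed to 7568 and 6642 CPM (NS) and to 7369 and 6279 CPM (IUGR) (replicates 1 and 2), that is 0.628% to 0.757% of all counts. H4 genes held the largest part, between 35.4% and 38.6% of the histone counts, followed by H2B with 21.0% to 22.7%, H1 with 16.04% to 17.7%, H3 with 12.9% to 14.4% and H2A with 9.75% to 9.91%. These shares are of counts and lengths differ between types. Replicate 2 was slightly below replicate 1 in both groups, by a median of -0.18 (NS) and -0.27 (IUGR) on the log2(CPM + 0.5) scale, and 55 and 52 of the 59 members were lower in it. The 35 markers of cycling cells differed likewise, with medians of -0.31 and -0.25, against 0.003 and 0.019 over 14637 genes with a mean of at least 1 CPM. These are the replicate 2 libraries with high Xist, and its part in this difference was not tested.

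**Figure D1:**
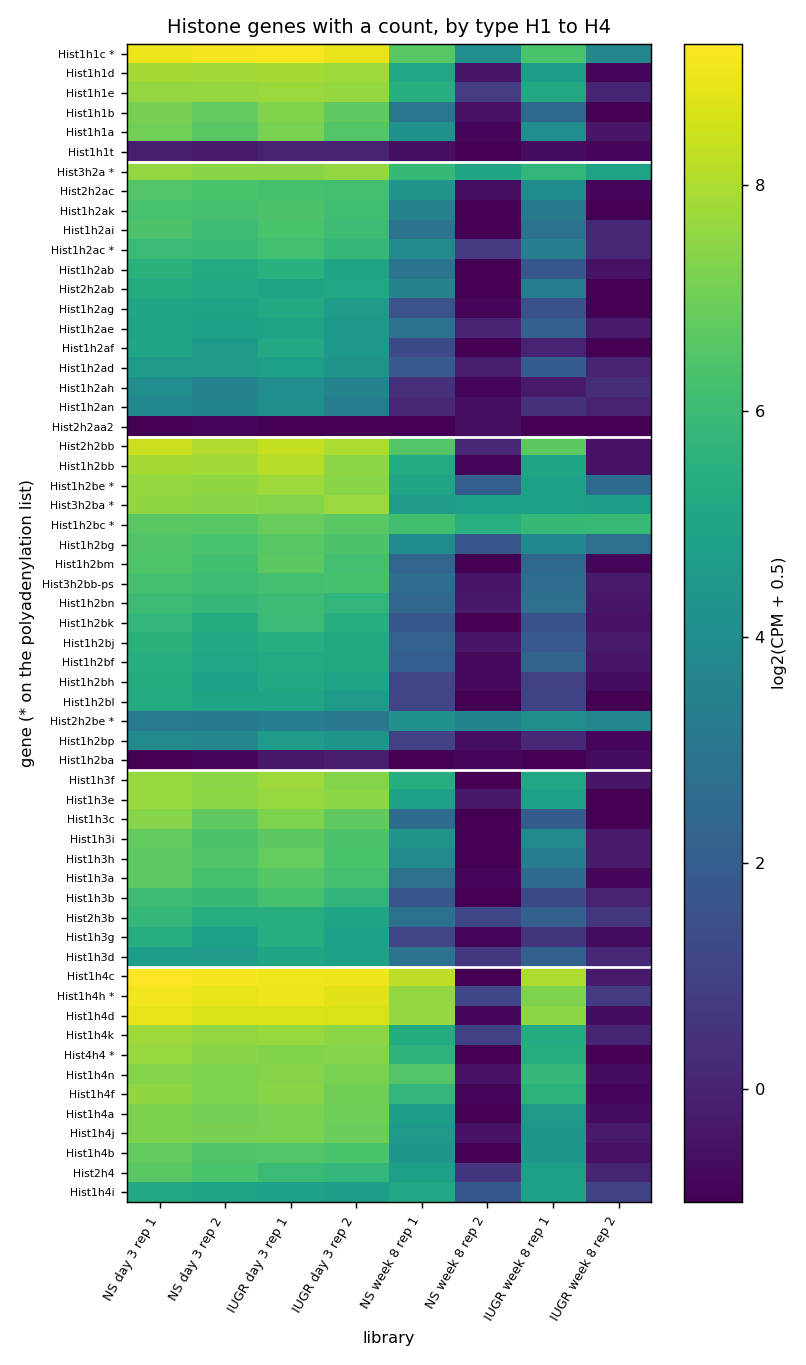
Level of the 59 histone genes with a count in each of the 8 libraries, as log2(CPM + 0.5) in colour, with genes grouped by type from H1 at the top to H4 at the bottom and sorted by mean CPM within a type; an asterisk marks the polyadenylation list. The 4 day 3 columns look alike, week 8 replicate 1 is darker, and in week 8 replicate 2 few genes other than Hist1h1c, Hist3h2a, Hist3h2ba, Hist1h2bc and Hist2h2be keep a visible level.

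Histone mRNA was lower at week 8 than on day 3 in both groups. In NS the members summed to 1844 CPM in week 8 replicate 1 and 156 CPM in replicate 2, and in IUGR to 1593 and 167 CPM. With all 8 libraries, edgeR's quasi-likelihood test at an adjusted p under 0.05 called 10 of the 56 tested members lower and none higher in NS, while over all 15999 tested genes it called 14.1%, 6.44% lower and 7.7% higher. In IUGR it called 11 members lower and none higher, against 16.8% of all genes, 7.48% lower and 9.34% higher. The median log2 fold change of the 56 members was -3.54 in NS and -3.58 in IUGR, beside 0.04 and 0.02 for all tested genes, and 55 of 56 members were below 0 in each. The groups did not overlap for 55 of 59 members in NS and 56 of 59 in IUGR, all with week 8 lower, against 28.7% and 33.3% of all 20574 genes with a count. Week 8 lay above day 3 for 1 member in each, Hist2h2be, against 24.8% and 23.7%. In bulk tissue fewer dividing cells and less histone mRNA per cell cannot be told apart.

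The number of calls depended on single libraries. Leaving out 1 library of the 8 at a time gave 1 to 35 called members in NS, with 1 call without either NS day 3 library, where 0.31% and 0.415% of all genes were called, and 35 without NS week 8 replicate 1, where 23.0% were. In IUGR it gave 1 to 31, with 1 call without either IUGR day 3 library or IUGR week 8 replicate 2 and 31 without either NS week 8 library. Of all genes 0.559% to 5.49% were called in the former and 24.6% and 24.7% in the latter. Without both week 8 replicate 2 libraries, so that each week 8 group is 1 library assumed to vary like the others, edgeR called 53 of the 56 members lower and 1 higher in NS, against 19.2% and 18.7% of 16370 tested genes, and 54 lower and 1 higher in IUGR, against 20.0% and 21.4%. The median log2 fold change was then -2.60 in NS and -2.64 in IUGR. Hist1h4i was the member left uncalled in both, and Hist1h2bc in NS. This is called the reduced comparison below, against the full comparison of all 8 libraries. By type the full comparison called 3 H2A, 4 H2B and 3 H3 genes lower in NS and 4, 4 and 3 in IUGR, and no H1 or H4 gene. The reduced one called all 5 H1, all 13 H2A, all 10 H3 and 11 of 12 H4 genes lower in each group, and 14 (NS) and 15 (IUGR) of 16 H2B genes lower and 1 higher.

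**Figure D2:**
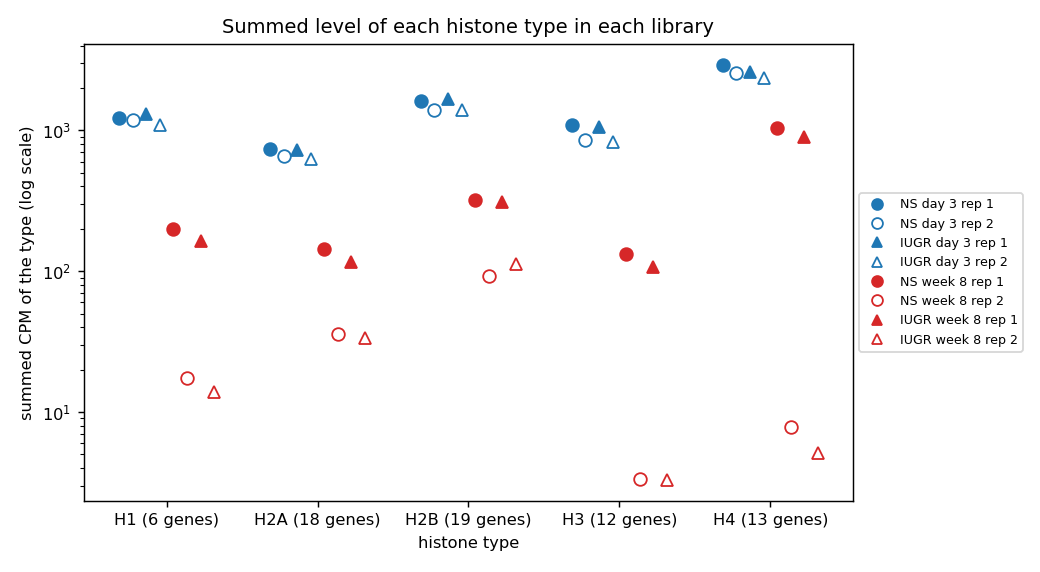
Summed CPM of the members of each histone type (log axis) in each of the 8 libraries; colour gives the age, circles are NS and triangles IUGR, filled for replicate 1 and open for replicate 2. Every type is lower at week 8, H4 least so in replicate 1 (1046 and 898 CPM) and most so in replicate 2 (7.79 and 5.14 CPM).

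The linker histone H1 binds the DNA between nucleosomes. Its 6 genes summed to 1214 and 1175 CPM (NS) and 1302 and 1086 CPM (IUGR) on day 3, and to 201 and 17.4 CPM (NS) and 163 and 13.9 CPM (IUGR) at week 8. Hist1h1c, the highest H1 member, had 512 and 546 CPM (NS) and 559 and 477 CPM (IUGR) on day 3, then 95.8 and 15.6 CPM (NS) and 79.9 and 12.9 CPM (IUGR). All 4 week 8 values were below all day 3 values, yet the full comparison did not pass (log2 fold change -3.23 ± 1.05 (SE) in NS and -3.38 ± 1.06 in IUGR, edgeR adjusted p = 0.0885 and 0.0742). In the reduced comparison Hist1h1c fell by 2.45 ± 0.17 on the log2 scale in NS (edgeR adjusted p = 0.000159). Hist1h1d, the H1 member next in level, had 234 and 225 CPM (NS) on day 3 and 35.0 and 0.263 CPM at week 8, and in IUGR 230.1 and 215 CPM, then 25.8 and 0.069 CPM. Hist1h1d in the reduced comparison fell by 2.70 ± 0.15 (NS) and fell by 2.99 ± 0.15 (IUGR), with an adjusted p of 7.3e-05 and 4.7e-05, and in the full one its adjusted p was 0.284 and 0.244. The testis-specific H1 gene Hist1h1t had between 0 and 9 counts per library and was not tested.

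H2A and H2B form the dimers that are added last to a nucleosome. H2A genes summed to 738 and 652 CPM (NS) and 723 and 622 CPM (IUGR) on day 3, and to 145 and 35.6 CPM and 116 and 33.4 CPM at week 8. Hist3h2a, the highest H2A member, fell in both groups in the full comparison: 191 and 171 CPM (NS) became 57.7 and 33.0 CPM (log2 fold change -1.97 ± 0.37, adjusted p = 0.0204), and 169.6 and 189 CPM (IUGR) became 52.6 and 29.8 CPM (-2.02 ± 0.37, adjusted p = 0.0168). The reduced comparison gave -1.63 ± 0.15 and -1.65 ± 0.15 (adjusted p = 0.000355 and 0.000297). Hist2h2ac, a member of the Hist2 cluster, had 91.4 and 80.7 CPM (NS) and 76.4 and 72.8 CPM (IUGR) on day 3. At week 8 it had 20.0 and 0.158 CPM (NS) and 14.9 and 0.069 CPM (IUGR), and did not pass in the full comparison (adjusted p = 0.318 and 0.293). In the reduced one Hist2h2ac fell by 2.08 ± 0.16 in NS (adjusted p = 0.000223) and fell by 2.21 ± 0.16 in IUGR (adjusted p = 0.000167). Among low members, in the full comparison, Hist1h2an fell from 13.2 and 11.8 CPM to 0.614 and 0.158 CPM (NS) (-5.05 ± 0.68, adjusted p = 0.00864), and Hist1h2af from 36.1 and 21.6 CPM to 0.473 and 0 CPM (IUGR) (-6.77 ± 1.62, adjusted p = 0.0355). These were -4.31 ± 0.57 for Hist1h2an in NS and -5.79 ± 0.58 for Hist1h2af in IUGR in the reduced one (adjusted p = 0.00156 and 0.000471). Of Hist1h2an, 83.3% of the 100-base windows occur in another gene, most often Hist1h2ah, and of Hist1h2af 65.3%, so the counts of both are uncertain.

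H2B genes summed to 1611 and 1393 CPM (NS) and 1676 and 1387 CPM (IUGR) on day 3, and to 319 and 91.7 CPM and 310 and 112 CPM at week 8. Hist2h2bb, the highest H2B member per base of gene length, had 345 and 258 CPM (NS) and 323 and 253 CPM (IUGR) on day 3. At week 8 it had 90.4 and 0.632 CPM (NS) and 102 and 0.206 CPM (IUGR). The adjusted p was 0.451 and 0.4897 in the full comparison. In the reduced one Hist2h2bb fell by 1.72 ± 0.25 (NS) and fell by 1.39 ± 0.24 (IUGR), with an adjusted p of 0.00206 and 0.00416. Hist1h2bb, in the Hist1 cluster, had 234 and 224 CPM, then 38.1 and 0.053 CPM (NS), and 280.0 and 179 CPM, then 32.8 and 0.206 CPM (IUGR). Hist1h2bb fell by 2.57 ± 0.30 (NS) and fell by 2.70 ± 0.30 (IUGR) in the reduced comparison (adjusted p = 0.00091 and 0.00069), and in the full one its adjusted p was 0.316 and 0.293. Among low members, Hist1h2bh fell in the full comparison from 38.4 and 27.0 CPM to 1.69 and 0.105 CPM (NS) (-5.25 ± 1.20, adjusted p = 0.0352). Hist1h2bp fell from 24.7 and 19.0 CPM to 0.609 and 0.069 CPM (IUGR) (-5.87 ± 1.09, adjusted p = 0.0174). In the reduced comparison the same values were -4.25 ± 0.36 for Hist1h2bh and -5.04 ± 0.38 for Hist1h2bp (adjusted p = 0.000314 and 0.00018).

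H3 and H4 form the tetramer at the centre of the nucleosome. H3 genes summed to 1084 and 859 CPM (NS) and 1063 and 829 CPM (IUGR) on day 3, and to 133 and 3.32 CPM and 106 and 3.29 CPM at week 8. Hist1h3e, the highest H3 member per base of gene length, had 205 and 179 CPM, then 28.2 and 0.316 CPM (NS), and 201 and 183 CPM, then 28.8 and 0 CPM (IUGR). Hist1h3e in the reduced comparison fell by 2.75 ± 0.17 (NS) and fell by 2.62 ± 0.17 (IUGR), with an adjusted p of 0.000115 and 0.000112, and in the full one its adjusted p was 0.285 and 0.283. Hist1h3c kept the smallest part of its level in NS, 4.18% in week 8 replicate 1: 165 and 107 CPM (NS) and 152 and 106 CPM (IUGR) on day 3 stood against 5.68 and 0 CPM and 3.58 and 0 CPM at week 8. Hist1h3c fell by 4.56 ± 0.42 (NS) and fell by 5.05 ± 0.44 (IUGR) in the reduced comparison (adjusted p = 0.000403 and 0.000281), and in the full one its adjusted p was 0.0978 and 0.0797. Hist1h3b and Hist1h3g fell in the full comparison: Hist1h3b from 65.3 and 58.1 CPM to 2.84 and 0 CPM (NS) (-5.50 ± 1.39, adjusted p = 0.0461), and Hist1h3g from 41.0 and 28.2 CPM to 1.69 and 0.053 CPM (-5.38 ± 1.19, adjusted p = 0.0317). The reduced one gave -4.42 ± 0.36 for Hist1h3b and -4.33 ± 0.44 for Hist1h3g in NS (adjusted p = 0.000265 and 0.000568).

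H4 was the type that kept the most of its level in week 8 replicate 1. Its genes summed to 2921 and 2562 CPM (NS) and 2606 and 2354 CPM (IUGR) on day 3 and still to 1046 CPM (NS) and 898 CPM (IUGR) in week 8 replicate 1, where H4 made up 56.7% (NS) and 56.4% (IUGR) of the histone counts. In replicate 1 the day 3 sum was 2.79 (NS) and 2.9 (IUGR) times the week 8 sum for H4, 6.05 and 8 times for H1, 5.1 and 6.21 times for H2A, 5.04 and 5.41 times for H2B, and 8.12 and 10 times for H3. By gene, week 8 replicate 1 held a median of 31.1% (NS) and 32.8% (IUGR) of the day 3 mean over 12 H4 members, against 16.03% and 13.5% over 5 H1, 14.5% and 10.98% over 13 H2A, 10.8% and 11.2% over 16 H2B and 14.1% and 10.2% over 10 H3 members. These differences between types were not tested.

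**Figure D3:**
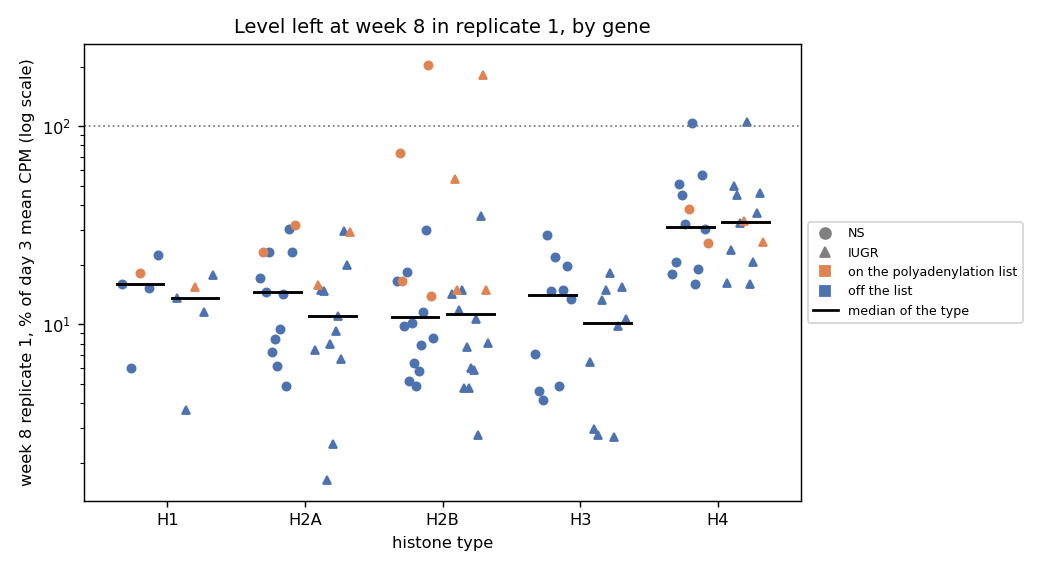
Level of each tested histone gene in week 8 replicate 1 as a percentage of its mean over the 2 day 3 libraries of the same treatment (log axis), by type; circles are NS, triangles IUGR, orange marks the polyadenylation list and black bars are medians. Hist2h2be lies at 204% and 182% and Hist1h4i at 104% in both, and the H4 medians of 31.1% and 32.8% are above those of the other types.

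Hist1h4c, the highest of all 68 members per base of gene length, had 606 and 549 CPM (NS) and 519 and 511 CPM (IUGR) on day 3. In week 8 replicate 1 it had 296 CPM (NS) and 256 CPM (IUGR), and in replicate 2 it had 0 CPM (NS) and 0.343 CPM (IUGR). Hist1h4c fell by 0.95 ± 0.14 (NS) and fell by 0.89 ± 0.14 (IUGR) in the reduced comparison (adjusted p = 0.00223 and 0.00259), and in the full one its adjusted p was 0.654 and 0.655. Hist1h4d, the next H4 member, had 478 and 398 CPM, then 197 and 0.053 CPM (NS), and 418 and 391 CPM, then 182 and 0.137 CPM (IUGR), and in the reduced comparison fell by 1.14 ± 0.16 (NS) and fell by 1.04 ± 0.16 (IUGR), with an adjusted p of 0.00206 and 0.00268. In the full one its adjusted p was 0.609 and 0.616. Hist1h4i was the H4 member not called in the reduced comparison: it had 35.7 and 30.7 CPM (NS) and 28.2 and 26.0 CPM (IUGR) on day 3, against 34.6 and 28.3 CPM there and 3.00 and 1.51 CPM in replicate 2 (log2 fold change 0.08 ± 0.17 and 0.18 ± 0.17, adjusted p = 0.752 and 0.447). In the full comparison its fold change had the other sign, -0.81 ± 1.33 and -0.76 ± 1.33 (adjusted p = 0.708 and 0.719). Hist1h4i was named after its values were seen.

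Members able to make polyadenylated mRNA were taken as a list of 9 genes: Hist1h1c, Hist1h2ac, Hist1h2bc, Hist1h2be, Hist1h4h, Hist2h2be, Hist3h2a, Hist3h2ba and Hist4h4. In the annotation 7 of the 9 have a transcript over 1000 bases, 7 have AATAAA or ATTAAA in the last 50 bases of a transcript and 7 have the stem-loop, the exceptions to the last being Hist1h2bc and Hist2h2be. Off the list, 11 of 59 members have such a long transcript and 10 such an end signal. The list made up 26.3% to 28.7% of the histone counts on day 3, 29.95% (NS) and 29.5% (IUGR) in week 8 replicate 1, and 88.85% (NS) and 88.2% (IUGR) in week 8 replicate 2. In CPM the list summed to 552 and 138 (NS) and 470 and 148 (IUGR) at week 8, and the 59 members off the list to 1292 and 17.4 (NS) and 1123 and 19.7 (IUGR). Replicate 1 was thus 3.99 (NS) and 3.19 (IUGR) times replicate 2 on the list and 74.4 and 56.9 times off it. In the full comparison 2 of the 9, Hist3h2a and Hist3h2ba, were called lower in each group, with a median log2 fold change of -2.76 (NS) and -2.68 (IUGR) on the list and -3.65 and -3.79 over the 47 tested members off it. In the reduced one 7 (NS) and 8 (IUGR) of the 9 were called lower and 1 higher, with medians of -1.93 and -1.82 on the list and -2.73 and -2.97 off it. The list was drawn up with earlier results of these data known, so its behaviour here is a description.

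**Figure D4:**
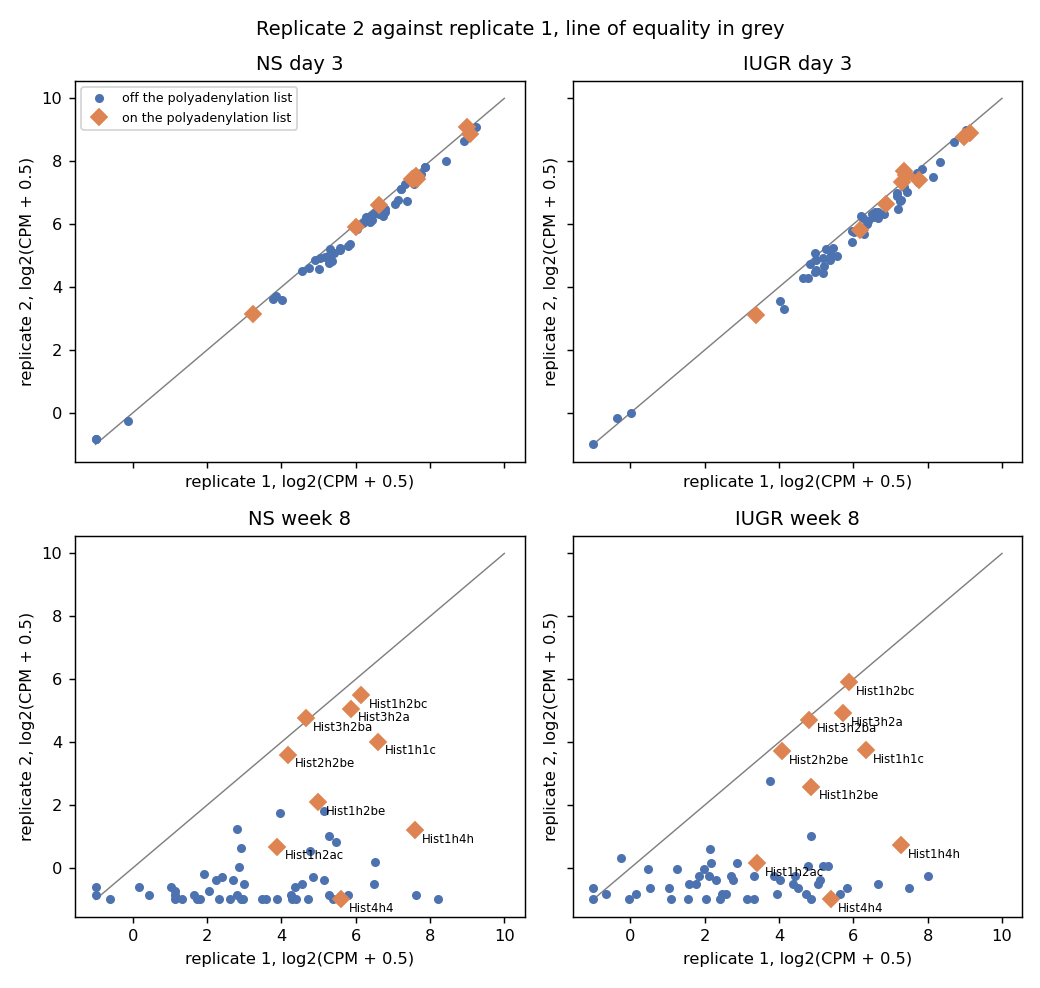
Replicate 2 against replicate 1 for the 59 histone genes with a count, as log2(CPM + 0.5), in the 4 groups; orange diamonds are the polyadenylation list, blue circles the other members and the grey line is equality. On day 3 all members lie near the line, and at week 8 most lie far below it while Hist1h2bc, Hist2h2be, Hist3h2a and Hist3h2ba stay near it in both groups.

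The list itself was not uniform. In both week 8 groups 4 of its members, singled out after their values were seen, kept at least 56.7% of their replicate 1 level in replicate 2. Hist1h2bc, an H2B gene, had 97.5 and 96.4 CPM (NS) and 116 and 98.9 CPM (IUGR) on day 3, and 70.8 and 44.8 CPM (NS) and 58.3 and 59.2 CPM (IUGR) at week 8. Its log2 fold change was -0.72 ± 0.25 in NS and -0.77 ± 0.25 in IUGR (adjusted p = 0.105 and 0.0834). In the reduced comparison Hist1h2bc fell by 0.77 ± 0.16 in IUGR (adjusted p = 0.00781), and in NS its fold change was -0.44 ± 0.15 (adjusted p = 0.0624). Hist3h2ba, an H2B gene of the Hist3 cluster, had 184 and 172 CPM (NS) and 163 and 206 CPM (IUGR) on day 3. At week 8 it had 24.8 and 26.7 CPM (NS) and 27.6 and 25.8 CPM (IUGR). Hist3h2ba fell by 2.76 ± 0.21 (NS) and fell by 2.68 ± 0.21 (IUGR) in the full comparison (adjusted p = 0.00244 and 0.00247), and its 4 week 8 values lay between 24.8 and 27.6 CPM. The reduced comparison gave -2.83 ± 0.18 and -2.62 ± 0.18 (adjusted p = 0.000125 and 0.000132).

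Hist2h2be was the member with a higher level at week 8. It had 8.94 and 8.34 CPM (NS) and 9.87 and 8.10 CPM (IUGR) on day 3, and 17.7 and 11.7 CPM (NS) and 16.4 and 12.7 CPM (IUGR) at week 8, so the ages did not overlap in either group. The full comparison did not pass (0.79 ± 0.30 in NS and 0.80 ± 0.30 in IUGR, adjusted p = 0.126 and 0.114). It rose by 1.05 ± 0.23 in NS and by 0.98 ± 0.22 in IUGR in the reduced comparison (adjusted p = 0.0107 and 0.0127). Hist2h2be (chr3:96221119-96223738, plus strand) is annotated head to head with Hist2h2ac (chr3:96220361-96220880, minus strand), whose level was lower at week 8 in every library, and its single annotated transcript has 2192 bases of 3′ UTR.

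The other members of the list lost much of their level in week 8 replicate 2. Hist1h1c kept 16.3% of its replicate 1 level in NS and 16.1% in IUGR, Hist1h2be 12.1% and 19.1%, Hist1h2ac 7.7% and 6.08%, and Hist1h4h 0.93% and 0.75%. Hist4h4 had 630 and 618 counts in replicate 1 (48.3 and 41.8 CPM) and 0 in replicate 2, which makes replicate 1 at least 306-fold (NS) and 203-fold (IUGR) higher. On day 3 Hist4h4 had 200.4 and 173 CPM (NS) and 159 and 161 CPM (IUGR), and in the reduced comparison Hist4h4 fell by 1.93 ± 0.15 (NS) and fell by 1.82 ± 0.15 (IUGR), with an adjusted p of 0.000236 and 0.000238. Hist1h4h, with 534 and 465 CPM (NS) and 501 and 436 CPM (IUGR) on day 3 and 191 and 155 CPM in week 8 replicate 1, fell by 1.37 ± 0.17 (NS) and fell by 1.48 ± 0.17 (IUGR) in the same comparison (adjusted p = 0.00119 and 0.000781). Hist1h2be had 197 and 184 CPM (NS) and 216 and 170 CPM (IUGR) on day 3, and 31.5 and 3.79 CPM and 28.7 and 5.49 CPM at week 8. Hist1h2ac had 63.5 and 59.5 CPM and 72.1 and 55.9 CPM on day 3, and 14.4 and 1.11 CPM and 10.1 and 0.617 CPM at week 8. In the reduced comparison in NS, Hist1h2be fell by 2.58 ± 0.21 (adjusted p = 0.00025) and Hist1h2ac fell by 2.08 ± 0.22 (adjusted p = 0.000646). In the full comparison none of Hist1h2be, Hist1h2ac, Hist1h4h and Hist4h4 passed in NS (adjusted p = 0.0835, 0.182, 0.482 and 0.439) or in IUGR (adjusted p = 0.0774, 0.132, 0.449 and 0.445).

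Off the list the loss was wider. There 47 members had more than 3 counts in week 8 replicate 1. Of these, 29 in NS and 24 in IUGR had at most 3 counts in replicate 2, and 16 and 8 had none. On the list it was 1 of 9 (Hist4h4) in each group. A cut of 3 counts is reached more easily from a low replicate 1 level. Off the list Hist1h2bl had 22 (NS) and 24 (IUGR) counts there, whereas Hist1h2ac on the list had 187 and 150. The share of all genes under this cut is not given here. The H4 genes were furthest apart, with a median of -6.05 (NS) and -5.82 (IUGR) over 12 genes on the log2(CPM + 0.5) scale. H2B (-2.63 and -2.09 over 17 genes) and H2A (-2.66 and -2.32 over 14) were nearest. This scale limits the drop of a low gene, and these types include listed members. For sums off the list, replicate 1 was 134 (NS) and 176 (IUGR) times replicate 2 for H4 and 58.6 and 86.3 times for H1. It was 49.3 and 18.2 times for H2A, 40.2 and 32.3 for H3, and 36.5 and 20.9 for H2B. Hist1h4c went from 3855 counts to 0 in NS, so replicate 1 was at least 1873-fold higher. On the same scale the median was -2.58 (NS) and -2.285 (IUGR) on the list and -3.56 and -3.21 off it. The list was drawn up with earlier results known, so it cannot be ranked against a grouping by the annotation. By annotation, the median was -3.05 (NS) and -2.92 (IUGR) for 14 members with a transcript over 1000 bases and -3.33 and -3.03 for the other 45. It was -2.86 and -2.48 with an end signal and -3.50 and -3.13 without, and -3.33 and -3.14 for the 40 members with a stem-loop and -3.09 and -2.95 for the 19 without. Most members with no match have a very short annotated 3′ UTR, so this last grouping cannot show what the stem-loop itself does.

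Few RNAs went from at least 500 counts in both week 8 replicate 1 libraries to at most 5 in both replicate 2 libraries. At least 500 counts in both week 8 replicate 1 libraries were found for 5351 genes, of which 13 were histone members. Of the 5351, 12 had at most 5 counts in both replicate 2 libraries. Of these 12, 6 were histone genes (Hist1h4c, Hist1h4d, Hist1h4n, Hist1h4f, Hist4h4 and Hist1h3f), and the other 6 were small noncoding RNAs: Rpph1, Rmrp, Scarna10, Scarna2, Scarna6 and Snora74a. Rmrp, the RNA of ribonuclease MRP, had 159001 and 0 counts (NS) and 114473 and 0 (IUGR). The thresholds were chosen after the values were seen. How many other genes differed between the replicates by as much as the median member is not given here. In NS 8 choroid plexus markers had a median of -4.02 on the log2 scale used above, against -3.33 over the 59 members. In IUGR these medians were -0.90 and -3.03. The cause of the gap between the week 8 replicates was not tested.

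**Figure D5:**
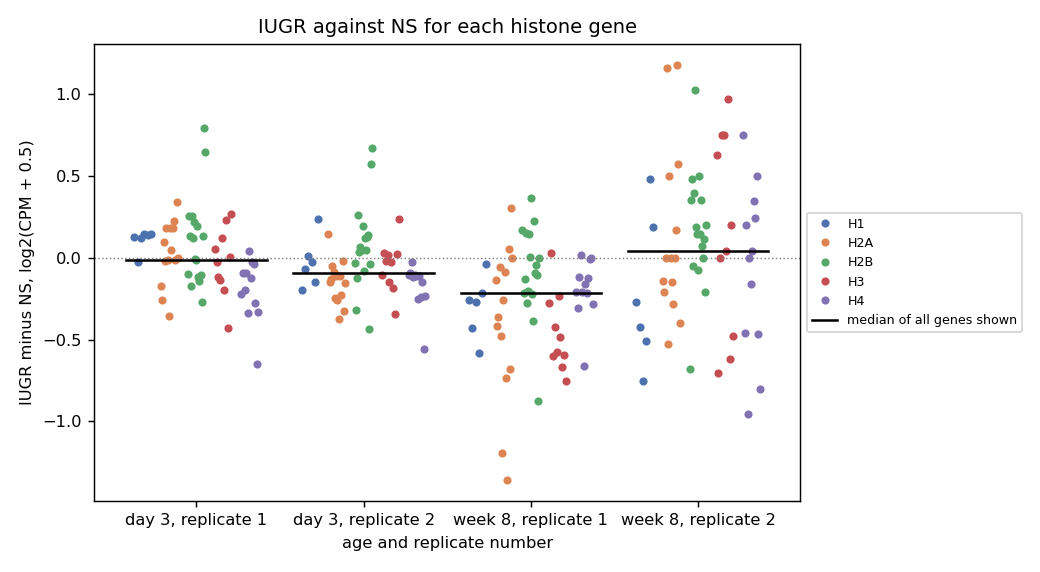
IUGR minus NS for each of the 59 histone genes with a count, on the log2(CPM + 0.5) scale, for libraries with the same replicate number at each age, coloured by type; black bars are medians over all genes shown. The medians are -0.01 and -0.09 on day 3 and -0.21 and 0.04 at week 8, and the spread over genes is widest in week 8 replicate 2, where most members have few counts.

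No histone gene was called between IUGR and NS. On day 3 edgeR called 0 of 56 members and 0.0% of all 15999 genes, with 0 members at an unadjusted p under 0.05 (96 genes in all), and DESeq2 and limma voom also called 0 members. DESeq2 on the day 3 libraries alone called 65 of 15435 genes (2 higher and 63 lower) and 0 members. The median log2 fold change was -0.02 over the members and 0.01 over all genes, with 22 members above 0 and 34 below. At week 8 edgeR again called 0 members and 0.0% of genes, with 0 members at an unadjusted p under 0.05 (161 genes), DESeq2 and limma voom called 0 members, and the median was -0.10 beside 0.02. The difference between the effects at the 2 ages gave 0 calls among members and 0.0% of genes (0 and 82 at an unadjusted p under 0.05), and DESeq2 and limma voom called 0 members. These comparisons cannot show that histone levels were alike, because 2 libraries per group leave wide intervals. The full fit also shares its estimate of spread over all groups, the split week 8 libraries included. Fitted on the day 3 libraries alone, edgeR gave 2 of 56 members and 839 of 15435 genes at an unadjusted p under 0.05. It called none of them. In the reduced comparison, which has 1 library on each side at week 8, the median was -0.15 over the members and 0.03 over all tested genes.

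By type, H4 genes leaned lower in IUGR on day 3. In replicate 1 11 of 12 H4 genes were below NS with a median of -0.16, and in replicate 2 12 of 12 with a median of -0.12. Of 14637 genes with a mean of at least 1 CPM, 7483 and 6411 were below NS, with medians of -0.008 and 0.031. H2A genes had medians of 0.03 and -0.14 and H1 genes 0.13 and -0.05. None of the H4 genes was called. Hist2h4 had the most negative log2 fold change of the members: 97.7 and 80.0 CPM (NS) against 62.1 and 54.2 CPM (IUGR) (-0.61 ± 1.59, edgeR adjusted p = 1.0). Fitted on the day 3 libraries alone it was -0.61 ± 0.13 (adjusted p = 0.493). Hist1h2bp had the most positive one: 14.0 and 12.6 CPM (NS) against 24.7 and 19.0 CPM (IUGR) (0.71 ± 0.82, edgeR adjusted p = 1.0), and on the day 3 libraries alone it was 0.72 ± 0.19 (adjusted p = 0.669). Hist2h4 was named after its values were seen. For both genes the day 3 groups did not overlap. Over all 59 members with a count the day 3 groups did not overlap for 6 with IUGR higher and 6 with IUGR lower (10.2% each), which is below the 17.4% and 15.7% of all genes with a count. At week 8 no member had groups that did not overlap, against 4.13% of all genes higher and 8.88% lower. In week 8 replicate 1 47 of 59 members were lower in IUGR than in NS, with a median of -0.21. In replicate 2 22 were lower and 31 higher, with a median of 0.04. Of the 14637 genes, 8516 were lower in replicate 1 and 7994 in replicate 2, with medians of -0.048 and -0.045.

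Genes of the cell cycle and of histone supply were described in the same way. The counts for these lists, replacement histone genes included, stand beside the share of all 15999 tested genes. The full comparison called 14.1% (NS) and 16.8% (IUGR) of these, with 6.44% and 7.48% lower and 7.7% and 9.34% higher. The larger shares of the reduced comparison are given above. No list was tested as a set. Of 35 markers of cycling cells, 26 fell and none rose in NS in the full comparison, and 24 fell and none rose in IUGR, with a median log2 fold change of -2.30 and -2.29. In the reduced one 30 and 29 fell. The list summed to 752 to 996 CPM in the 4 day 3 libraries and to 243 and 176 CPM (NS) and 217 and 208 CPM (IUGR) at week 8, so the week 8 replicates differed by 1.38 and 1.04 times, where the histone genes differed by 11.8 and 9.52 times. Of 20 genes for histone mRNA processing and supply, 3 fell and none rose in each group: Slbp, Lsm10 (a subunit of the particle that cuts histone pre-mRNA) and Coil (a scaffold of Cajal bodies). Of the 20, 7 fell and 1 rose in NS in the reduced comparison, and 11 fell and none rose in IUGR. Slbp had 44.2 and 35.5 CPM (NS) and 46.5 and 46.3 CPM (IUGR) on day 3, and 21.6 and 18.7 CPM (NS) and 21.8 and 21.9 CPM (IUGR) at week 8 (-0.95 in NS and -0.98 in IUGR, adjusted p = 0.030 and 0.025). In the reduced comparison Slbp gave -0.86 and -0.97 (adjusted p = 0.0112 and 0.00614). Npat, the S-phase activator of histone transcription, had 33.0 and 34.2 CPM (NS) on day 3 and 47.4 and 29.4 CPM at week 8, and did not pass in the full comparison (0.22 ± 0.27, adjusted p = 0.619). In the reduced one, which leaves out its lowest NS value, Npat rose by 0.51 ± 0.15 in NS (adjusted p = 0.0325) and was 0.30 ± 0.15 in IUGR (adjusted p = 0.151). Of 19 histone chaperone genes, 3 fell and 1 rose in NS and 2 fell and 1 rose in IUGR. Those that fell in both were Nasp, a carrier of soluble histones, and Chaf1b, a subunit of the replication-coupled assembly factor, and the one that rose in both was Nap1l5. Of the 19, 10 fell and 2 rose in NS in the reduced comparison, and 8 fell and 2 rose in IUGR.

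Replacement histone genes are transcribed outside S phase too, and most make polyadenylated mRNA. H2afx, which is among those taken here, also has the stem-loop in its annotation. Of 11, 5 fell and none rose in each group in the full comparison, and 6 (NS) and 7 (IUGR) fell in the reduced one. The 5 were H3f3a and H3f3b, which encode the same replacement H3 protein, H2afz, H2afy2 and Cenpa. All 11 genes together summed to 2038 to 2332 CPM on day 3 and to 867 and 846 CPM (NS) and 789 and 887 CPM (IUGR) at week 8. H3f3a, for example, had 632 and 636 CPM (NS) on day 3 and 224 and 171 CPM at week 8 (-1.66, adjusted p = 0.0093), and -1.49 in the reduced comparison (adjusted p = 0.000597). H1fx, a replacement H1 gene, was higher in week 8 replicate 2, with 4.53 and 52.2 CPM (NS) and 3.79 and 49.2 CPM (IUGR).

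Markers of other tissues also differed between libraries. Choroid plexus markers summed over 8 genes ranged from 84.1 to 6315 CPM on day 3 and from 62.7 to 6718 CPM at week 8, with NS replicate 1 highest at week 8 and no gene of the list was at 0 in all libraries. Meningeal and fibroblast markers (9 genes) summed to 384 to 1096 CPM on day 3 and to 511 to 2338 CPM at week 8, and endothelial markers (7 genes) to 76.0 to 120 and 44.4 to 113 CPM. Microglial markers (8 genes) summed to 99.2 to 144 and 305 to 369 CPM. Of 7 erythroid genes the 4 adult globin genes were listed at 0 in every library, and the list summed to 7.09 to 12.9 CPM on day 3 and 1.00 to 81.3 CPM at week 8. Neuron markers were 4902 and 12465 CPM (NS) and 5254 and 12268 CPM (IUGR) at week 8, higher in replicate 2 of both groups. The part of these differences in the histone levels was not tested.

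Counts of single histone genes carry the limits of a family of near copies. In 25 of the 68 members at least 50% of the 100-base windows of the transcript also occur in another gene, and 8 of the 9 members with no count are among them. Exons of 24 members overlap another annotated gene, and the strandedness of the counting is not given in the sources used here.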

How the data were processed

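Ribosome-depleted hippocampal RNA was sequenced in 8 libraries, 2 in each of 4 groups taken from the sample labels. Each deposited table held read counts per gene, made by the authors with cutadapt 1.16, HISAT2 2.1.0, SAMtools 1.9 and featureCounts 1.6.1 on mm10, per the submitters' processing notes, which also name DESeq2 1.26.0. For the annotation, the strandedness and multi-mapping reads, the setting is not given in the sources used here. The tables also hold a gene length, which the authors deposited as another column.

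Totals were 13030277 to 18993050 counts per library, and 3 counts, the limit a count of 0 allows, correspond to 0.158 to 0.230 CPM. This limit covers counting error only. Genes were filtered with filterByExpr, scaled by TMM and fitted over all 8 libraries with edgeR 4.0.16 (quasi-likelihood test, R 4.3.3), with Benjamini-Hochberg adjustment over 15999 genes and a threshold of 0.05. Medians between replicates used log2(CPM + 0.5). DESeq2 1.42.0, limma 3.58.1 (voom), no filter, the replicate number as a block and left-out libraries were alternatives. Named genes were up to 4 called members per direction and comparison with the largest fold changes, the 2 highest members of each type by CPM per kb and the poly(A) list; others are said to be named after their values were seen. Members and lists were chosen with earlier results of these data known. Stem-loops came from GENCODE M21 transcripts, promoters from RefSeq.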

Additional observations from a re-analysis of the deposited data

How the results depend on the processing

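The direction of the age difference did not reverse for the 23 members named by rule under the alternatives run. For Hist1h4i, named after its values were seen, it turned without both week 8 replicate 2 libraries, from -0.81 to 0.08 (NS) and from -0.76 to 0.18 (IUGR). The share of all genes called moved with the member calls in most of the fits below. The exception was limma voom, which called more members at a similar share of all genes. The number of calls depended on which libraries were used, at day 3 as well as at week 8. In NS, 10 members were called in the full comparison, 20 by DESeq2, 27 by limma voom, 54 without both week 8 replicate 2 libraries and 55 without both replicate 1 libraries, where 14.1%, 25.7%, 14.3%, 37.9% and 57.8% of all genes were called. In IUGR the counts were 11, 24, 25, 55 and 55, beside 16.8%, 28.6%, 16.6%, 41.4% and 56.0% of all genes. A replicate block, which pairs libraries of equal number, called 56 members in each group (47.9% and 50.4% of all genes), with a median log2 fold change of -5.72 (NS) and -5.78 (IUGR). The NS median was -6.26 by voom and -9.07 without both replicate 1 libraries, where the IUGR median was -8.04. Leaving out 1 library at a time gave 1 to 35 calls and medians of -9.07 to -2.61 in NS, and 1 to 31 calls and medians of -8.04 to -2.66 in IUGR. The IUGR median at week 8 was -0.10 in the full comparison, 0.46 by voom, 0.28 without both replicate 1 libraries and -4.61 to 5.30 with 1 library left out. For the difference between ages these were -0.02, 0.48, 0.34 and -4.41 to 5.31, and on day 3 leaving out 1 library gave -0.24 to 0.10. No member was called for IUGR in any of these fits. With library totals without Rpph1, H1 genes summed to 1312 and 1256 CPM in the NS day 3 libraries. Deviations of same-numbered libraries correlated at -0.08 on day 3 and 0.86 at week 8 over 14637 genes. The labels do not say that the numbers mark a shared batch. DESeq2 and the replicate block on each age alone were added after seeing the data and called no member for IUGR: DESeq2 called 65 genes on day 3 and 1 at week 8, and the block none. With 2 libraries per group, and 1 in an arm where libraries were left out, a lone library's spread is borrowed from the other groups. Causes were not tested.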
